A study of Rattus norvegicus with 48 samples.

Results

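A set of 7 genes of the extracellular matrix and its signalling (Lum, Lox, Bgn, Fbn1, Col5a1, Ccn2 and Grem1) was described in rat kidneys given indole-3-carbinol. In the mean of the strains Lum rose at days 7 and 10. Grem1, which encodes a secreted antagonist of bone morphogenetic proteins (BMPs), fell at both times. Lox rose at day 7 and was not called at day 10, and its day 7 call was lost in some subsets of the arrays. The other 4 passed at neither time against day 0. Members were the probe sets whose only symbol in the array annotation was 1 of these names. Each gene had 1 such probe set, so 7 of the 7603 probe sets with a single symbol, and of 8797 in all, were described.

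Total RNA from kidneys of male rats was hybridised to whole-transcript arrays, with 4 strains and 3 times crossed into 12 groups of 4 arrays. The day 7 and day 10 kidneys of strains F, L, FL and LF came from rats given indole-3-carbinol, a plant indole, by gavage (100 mg/kg daily), and the day 0 kidneys of the same strains are taken as those of the rats gavaged with vegetable oil. The sample labels give an age of 12 weeks for all rats, the protocol lists 8 rats per group, and neither says whether an array held RNA of 1 rat or a pool. The labels name no allele, transgene or inbred strain behind the letters F, L, FL and LF, and the length of the oil gavage is not given in the sources used here.

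Lumican (Lum) and biglycan (Bgn) are small leucine-rich proteoglycans that bind collagen fibrils, and Col5a1 encodes a chain of the collagen that starts and limits the width of such fibrils. Lysyl oxidase (Lox) cross-links collagen and elastin, and fibrillin-1 (Fbn1) builds the microfibrils that hold latent TGF-beta. Ccn2, also called connective tissue growth factor, is a matricellular protein and a known target of TGF-beta and of mechanical signals. Gremlin-1 (Grem1) binds BMPs and keeps them from their receptors, and it is known for its role in kidney development and for raised levels in several models of renal fibrosis.

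The start regions of Lum and Grem1 are shown because these genes gave the largest changes of the set, in opposite directions. RefSeq sequences of the GRCr8 build were used, from 250 bases before to 50 bases after the gene start, each written on the strand of its gene, 5′ to 3′. Lum lies at chr7:34245456-34245755 on the + strand and Grem1 at chr3:120978270-120978569 on the - strand. Capitals mark matches, on either strand, to a pair of motifs. The AhR core, GCGTG, is bound by the aryl hydrocarbon receptor, which products of indole-3-carbinol activate. The CAGA box, searched as CAGAC, is bound by Smads, which carry TGF-beta signals.
Lum: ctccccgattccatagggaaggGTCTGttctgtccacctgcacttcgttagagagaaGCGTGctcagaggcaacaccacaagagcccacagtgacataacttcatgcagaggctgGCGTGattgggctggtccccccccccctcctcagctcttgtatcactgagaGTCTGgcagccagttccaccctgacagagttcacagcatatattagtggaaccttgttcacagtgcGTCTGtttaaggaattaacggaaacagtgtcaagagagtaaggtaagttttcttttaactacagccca
Grem1: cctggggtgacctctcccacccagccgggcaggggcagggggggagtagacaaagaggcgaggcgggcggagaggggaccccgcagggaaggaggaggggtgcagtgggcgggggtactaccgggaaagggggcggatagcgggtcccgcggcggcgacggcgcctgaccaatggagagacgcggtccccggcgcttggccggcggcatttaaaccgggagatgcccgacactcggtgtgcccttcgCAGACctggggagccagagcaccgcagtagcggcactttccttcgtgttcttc
The Lum window held 2 matches to the AhR core and 3 to the CAGA box, none overlapping, and its GC content was 50.7%. The Grem1 window held 0 matches to the AhR core and 1 to the CAGA box, and its GC content was 70%. Of 33469 RefSeq promoter windows of this length, 29.7% held the AhR core and 50.1% the CAGA box on either strand, at least 1 match each. Shares of windows with 2 or 3 matches were not counted. Whether these sites are bound in kidney, or bear on the changes of Lum and Grem1, was not tested. Among the members, 5 had a window in the table, and Lox and Bgn were not in it. Of the other members, Ccn2 had 2 matches to the CAGA box, Fbn1 had 1 and Col5a1 had 0, and none of these 3 had the AhR core. The TATA box, searched as TATAAA on either strand, occurred in the Ccn2 window among the 5, and in 14.2% of all windows.

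All values are log2 signals of the deposited table, and the SD over the probe sets of an array (the array spread) ran between 2.287 and 2.536. The kidney label was borne out by all 12 measured markers of the proximal tubule, each brighter than at least 96.4% of probe sets. Cyp1a1, the standard target of the aryl hydrocarbon receptor, was taken in the mean of the 4 strains. It was higher than at day 0 on the log2 scale by 1.33 ± 0.217 (SE, adjusted p = 8.83e-05) at day 7 and by 1.74 ± 0.217 (9.14e-07) at day 10. Havcr1, which encodes the tubular injury marker kidney injury molecule 1, was 1.77 higher at day 7 (adjusted p = 3.4e-05) and 2.87 higher at day 10 (1.74e-09). The strains differed in both. Havcr1 in L ran between 3.48 and 4.23 at day 7, against 3.74 to 4.32 at day 0, and overlapped day 0 at day 10 too. In F, FL and LF it lay above day 0 at both times. Cyp1a1 in LF (4.49 to 5.15 at day 0) overlapped at day 7 (4.7 to 5.99) and day 10 (4.35 to 6.33). In FL Cyp1a1 overlapped at day 7 only, and in F and L it lay above day 0 at both times.

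Averaged over the 4 strains, Lum was 1.57-fold the day 0 level at day 7 and 1.6-fold at day 10, Lox was 1.19-fold at day 7, and Grem1 was 0.505 of its day 0 level at day 7 and 0.595 at day 10. These made 3 of 7 members past an adjusted p of 0.05 at day 7, against 4.94% of all probe sets (1.19% higher and 3.75% lower), and 2 of 7 at day 10, against 2.41% (1.26% higher and 1.15% lower). The members were chosen with earlier results of these data known, so these shares do not test the set. The day 7 split over all probe sets, 105 higher and 330 lower, moved to 267 and 367 after a second quantile normalization and to 256 and 310 with array medians subtracted. With the array spread in the fit it reversed, to 268 higher and 225 lower. Bgn, Fbn1, Col5a1 and Ccn2 passed at neither time. In whole kidney RNA, fewer cells of a type and less RNA per cell cannot be told apart.

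In F kidneys Lum had log2 signals of 2.24, 2.73, 2.52 and 2.56 at day 0, 4.05, 4.09, 3.94 and 3.11 at day 7, and 3.40, 2.45, 3.69 and 2.87 at day 10. In L kidneys Lum had 2.40, 2.60, 2.85 and 2.19 at day 0, 3.25, 2.70, 2.85 and 3.05 at day 7, and 3.63, 3.00, 3.43 and 3.24 at day 10. All 4 day 7 arrays of F lay above the F arrays of day 0, and all 4 day 10 arrays of L lay above the L arrays of day 0. In FL kidneys Lum had 2.53, 2.29, 2.20 and 2.40 at day 0, 2.92, 2.67, 2.56 and 3.5 at day 7, and 2.92, 3.51, 3.22 and 3.08 at day 10. In LF kidneys Lum had 2.65, 3.04, 2.60 and 2.29 at day 0, 2.95, 2.85, 3.08 and 2.86 at day 7, and 3.26, 3.14, 3.27 and 2.82 at day 10. FL arrays of both treated days lay above those of day 0, whereas the LF groups overlapped at both times. A clear separation upwards from day 0 was found for 2.92% of probe sets in F at day 7, 1.42% in FL at day 7, 1.43% in L at day 10 and 0.989% in FL at day 10.

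Over the strains, Lum rose on the log2 scale by 0.65 ± 0.107 (SE, 95% interval 0.429 to 0.863, adjusted p = 0.00012 by limma) at day 7 and by 0.68 ± 0.107 (0.46 to 0.895, adjusted p = 5.51e-05) at day 10. Day 10 differed from day 7 by 0.03 (adjusted p = 0.901), and no member passed in that contrast (0 of 7 had an unadjusted p under 0.05), in which 0.114% of probe sets were called. The 4 day 0 groups were the 4 lowest of the 12 group means, with FL at day 0 at the bottom (2.355 ± 0.1425, SD, n = 4). The top group was F at day 7, at 3.798 ± 0.4627, and its gap to the next group, L at day 10 (3.325), was the only gap of the 11 between neighbours that was larger than the SDs of both groups. Within strains, 1 of 8 contrasts passed the test. F at day 7 was 1.28 ± 0.215 higher than F at day 0, 2.44-fold (adjusted p = 0.00127), where 0.671% of all probe sets were called. In the other 7 contrasts the called share of all probe sets was 0.239% (F at day 10), 0.0114% (L at both times), 0.159% and 0.0909% (FL at days 7 and 10), and 2.26% and 0.887% (LF at days 7 and 10). With only the F arrays in the fit, the adjusted p was 0.0691. The other 7 log2 differences for Lum ran between 0.29 (LF at day 7, adjusted p = 0.471) and 0.83 (FL at day 10, adjusted p = 0.23). Lum was a dim probe set, brighter than 16.7% of all probe sets, and more variable over the 48 arrays than 92.9% of them. Whether its signal at day 0 stood above background was not tested, so its folds describe the signal of the probe set.

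Lox had log2 signals of 4.66, 4.89, 4.70 and 4.59 in LF kidneys at day 0, 5.62, 5.76, 5.19 and 4.93 at day 7, and 5.10, 5.22, 5.12 and 5.17 at day 10. All 8 treated LF arrays lay above the 4 LF arrays of day 0, a separation seen upwards in LF for 2.22% of probe sets at day 7 and 2.66% at day 10. In F kidneys Lox had 4.95, 4.81, 4.80 and 4.75 at day 0, 5.13, 5.03, 5.19 and 5.0 at day 7, and 4.86, 4.65, 4.87 and 4.83 at day 10. In F the day 7 arrays lay above day 0, as for 2.92% of probe sets, and the day 10 arrays did not. In L kidneys Lox had 5.04, 5.02, 5.21 and 4.85 at day 0, 5.15, 4.91, 4.85 and 4.82 at day 7, and 5.29, 4.90, 5.13 and 5.06 at day 10. In FL kidneys Lox had 4.91, 4.61, 4.71 and 4.68 at day 0, 5.0, 4.86, 4.95 and 4.73 at day 7, and 4.97, 4.86, 4.86 and 4.64 at day 10. The treated arrays of L and FL overlapped those of day 0 at both times.

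In the mean of the strains Lox rose by 0.25 ± 0.058 (SE, 95% interval 0.129 to 0.363) at day 7 (adjusted p = 0.00717). At day 10 its difference was 0.15 (0.0297 to 0.264, adjusted p = 0.272), and adding the array spread to the fit brought that to 0.152 with an adjusted p of 0.0374. The day 7 call was lost without the 12 arrays of replicate number 1 (adjusted p = 0.0694), 2 (0.0955) or 3 (0.0715). Within strains, Lox passed in LF at day 7, where it was 0.67 ± 0.116 higher than at day 0, 1.59-fold (adjusted p = 0.000492), against 2.26% of all probe sets called. With only the LF arrays in the fit, this adjusted p was 0.0549. The LF difference at day 10 was 0.44 (adjusted p = 0.0509), and with the replicate number as a block the adjusted p was 0.0123. In the other strains at day 7, Lox differed from day 0 by 0.26 in F, -0.10 in L and 0.16 in FL, none of them called.

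Whether the Lox response differed between strains was tested directly. The strain by day F test gave Lox an adjusted p of 0.216, against 0.0499 with the replicate block, 0.0168 with array medians subtracted and 0.00941 with the array spread in the fit. On the deposited values with only the group means in the fit, no member passed this test (3 of 7 had an unadjusted p under 0.05), where 0.193% of probe sets did. Of 12 differences in response between strains that were taken for each of the 7 genes, none passed (14 of the 84 had an unadjusted p under 0.05), and each of the 12 called 0, 0.0114%, 0.0227%, 0.0568% or 0.114% of all probe sets. The nearest was Lox in LF minus L at day 7, at 0.76 ± 0.164 (adjusted p = 0.0517), which had an adjusted p of 0.00901 with the replicate block. It also passed without any single array among LF day 0 replicate 2 (0.048), L day 0 replicate 4 (0.0388), LF day 7 replicate 3 (0.0288), LF day 7 replicate 4 (0.00124) and L day 7 replicate 1 (0.0298). For Lum the response at day 7 in LF minus F was -0.99 (adjusted p = 0.359), and for Grem1 the strain by day test gave an adjusted p of 0.981.

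**Figure D1:**
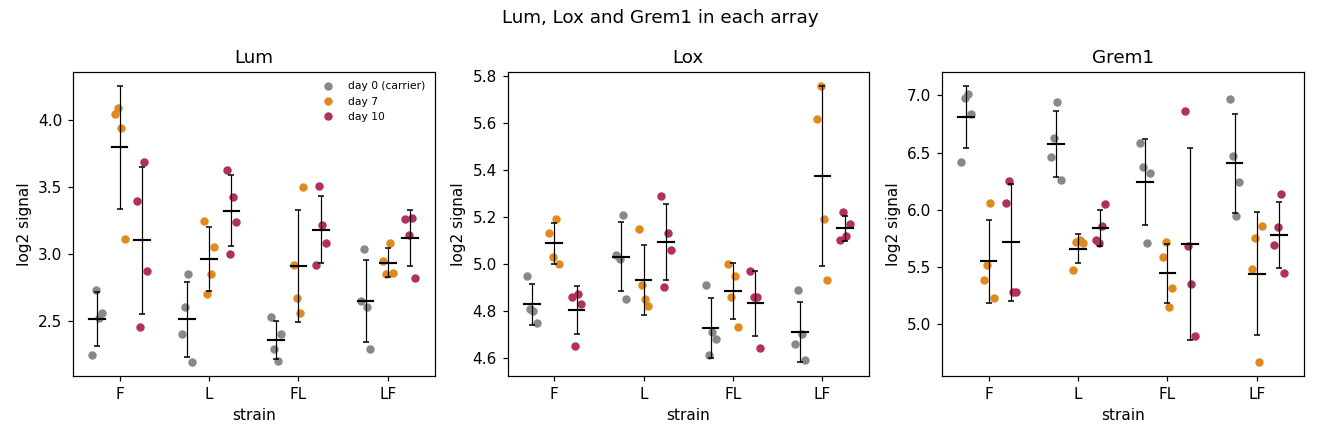
Log2 signals of Lum, Lox and Grem1 on each of the 48 arrays, by strain and day, with 4 points per group, a black bar at the group mean and an error bar of 1 SD. Lum is highest in F at day 7 (mean 3.798), Lox in LF at day 7 (mean 5.375), and the 4 groups of day 0 are the 4 highest for Grem1.

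Grem1 had log2 signals of 6.42, 6.98, 7.01 and 6.84 in F kidneys at day 0, 5.39, 5.52, 6.06 and 5.23 at day 7, and 6.06, 6.25, 5.28 and 5.28 at day 10. In L kidneys Grem1 had 6.46, 6.63, 6.94 and 6.26 at day 0, 5.47, 5.72, 5.74 and 5.71 at day 7, and 5.74, 5.71, 5.86 and 6.05 at day 10. All treated arrays of F and L lay below those of day 0 at both times. In FL kidneys Grem1 had 6.58, 6.37, 5.71 and 6.32 at day 0, 5.59, 5.72, 5.15 and 5.32 at day 7, and 6.86, 5.68, 5.35 and 4.90 at day 10. In LF kidneys Grem1 had 6.97, 6.47, 5.95 and 6.24 at day 0, 5.48, 5.75, 4.67 and 5.86 at day 7, and 5.69, 5.85, 6.14 and 5.45 at day 10. LF separated from day 0 at day 7, and FL just overlapped at day 7, where 1 day 7 array stood at 5.72 and 1 day 0 array at 5.71. At day 10 the FL arrays held both the highest and the lowest treated value of that day. A separation downwards was found at day 7 for 2.76% of probe sets in F, 1.03% in L and 6.51% in LF, and at day 10 for 3.19% in F and 0.898% in L.

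Over the strains, Grem1 fell by 0.99 at day 7 (SE 0.141, 95% interval -1.27 to -0.701, adjusted p = 1.07e-05) and by 0.75 at day 10 (SE 0.141, -1.03 to -0.465, adjusted p = 0.000708). Day 10 stood 0.24 above day 7 (adjusted p = 0.441). The 12 group means ran between 6.812 ± 0.272 (SD, n = 4) in F at day 0 and 5.44 ± 0.5376 in LF at day 7. The 4 day 0 groups were the 4 highest, and the step between the lowest of them, FL at day 0 (6.245), and the next group, L at day 10 (5.84), was the only gap between neighbours larger than both SDs. Within strains, the fall passed in F at day 7, by 1.26 (SE 0.282, adjusted p = 0.0135). That call was lost on leaving out any of F day 0 replicates 2, 3 or 4 or F day 7 replicates 1 or 4 (adjusted p of 0.0539, 0.0618, 0.0523, 0.0615 and 0.0736). LF at day 7 had a difference of -0.97 (adjusted p = 0.0558), with an adjusted p of 0.0283 with the replicate block. L and FL had -0.91 and -0.80 at day 7, neither called. Grem1 varied more over the arrays than 96.4% of probe sets.

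The replicate numbers 1 to 4 each named a set of 12 arrays, 1 of each group, whose array names begin alike, so day differences could be taken within each set. Lum was 0.837, 0.413, 0.565 and 0.77 higher at day 7 in sets 1 to 4, and Grem1 was below day 0 by -1.12, -0.935, -0.997 and -0.885. For Grem1, 0 of the 4 strains were higher at day 7 in any set. Lox differed at day 7 by 0.335, 0.308, 0.19 and 0.153. At day 10 Grem1 differed by -0.52, -0.74, -0.745 and -0.995, and Lum by 0.847, 0.36, 0.86 and 0.643. For these 3 genes, each set showed the direction of the pooled value at both times. The sets are parts of the same arrays that gave the calls, so their directions are no separate support.

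**Figure D2:**
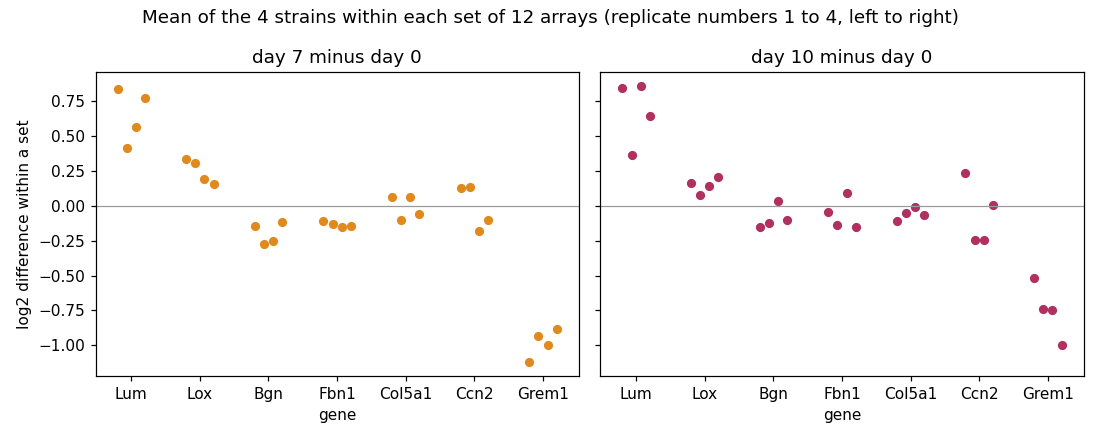
Log2 difference from day 0, as the mean of the 4 strains, within each of the 4 sets of 12 arrays that share a replicate number. Lum and Lox lie above 0 and Grem1 below 0 in all 4 sets, and Ccn2 lies on both sides of 0.

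Bgn was among the brighter probe sets, above 92.3% of them, and its day medians were 9.385 at day 0 (16 arrays, 8.96 to 9.7), 9.15 at day 7 (8.79 to 9.42) and 9.265 at day 10 (8.93 to 9.65). Its mean difference at day 7 was -0.20 ± 0.0675 (SE, 95% interval -0.333 to -0.0603, adjusted p = 0.081) and lay below 0 in all 4 sets of arrays. Weighting the arrays gave -0.211 and an adjusted p of 0.0198, and leaving out L day 0 replicate 4 (0.033), FL day 0 replicate 3 (0.0351) or L day 7 replicate 1 (0.0429) also brought it past the threshold. In F the Bgn arrays ran between 8.97 and 9.33 at day 7 and between 8.93 and 9.21 at day 10, all below the 9.35 to 9.46 of day 0, a separation downwards found in F for 2.76% of probe sets at day 7 and 3.19% at day 10. Bgn was in no contrast past the threshold.

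Fbn1 had day medians of 6.815 at day 0 (6.35 to 7.09), 6.72 at day 7 (6.39 to 7.02) and 6.815 at day 10 (6.24 to 7.1), with mean differences of -0.13 at day 7 (adjusted p = 0.199) and -0.06 at day 10 (adjusted p = 0.936). Its 4 F arrays of day 10, at 6.24 to 6.53, lay below the F arrays of day 0, at 6.77 to 6.85, with a difference of -0.37 (adjusted p = 0.23), where 3.19% of probe sets separated downwards. In L the Fbn1 means were 7.015 at day 10 and 6.975 at day 0. Fbn1 and Bgn moved together within groups: the deviations from group means correlated at r = 0.695 over the 48 arrays, and at 0.525 after the set of arrays and the array spread were removed. The deviations of all 7 genes ran with the array spread, at r = 0.752 for Fbn1, 0.62 for Lox, 0.573 for Grem1, 0.529 for Bgn, 0.427 for Lum, 0.387 for Ccn2 and -0.432 for Col5a1. The spread averaged 2.45 ± 0.051 at day 0, 2.413 ± 0.0543 at day 7 and 2.446 ± 0.0692 at day 10 (SD, n = 16 arrays each). With the array spread in the fit, the calls for Lum and Grem1 at both times and for Lox at day 7 held. Lox and Ccn2 deviated together at r = 0.474 (0.38 after the same step), and Bgn and Col5a1 had r = 0.162 (0.484). Lum and Grem1 had r = 0.0198, and -0.318 after that step.

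Col5a1 was among the least variable probe sets, with 4.37% varying less, and its day medians were 6.415 at day 0 (6.08 to 6.67), 6.415 at day 7 (6.22 to 6.58) and 6.35 at day 10 (6.12 to 6.52). Its mean difference was -0.01 at day 7 (95% interval -0.0875 to 0.0675) and -0.06 at day 10 (-0.136 to 0.0188). At day 0, Col5a1 was the only member among 6 strain pairs to pass the test. FL kidneys ran between 6.41 and 6.67 and LF kidneys between 6.08 and 6.37, with no overlap, as for 2.31% of probe sets that lay higher in FL, and a difference of 0.29 ± 0.0767 (adjusted p = 0.0258), where 3.07% of all probe sets were called. The other 5 pairs called 1.55% (F minus L), 0.0682% (FL minus F), 0.193% (LF minus L), 1.59% (FL minus L) and 2.11% (LF minus F). The call was lost after another quantile normalization (adjusted p = 0.0603) and without FL day 0 replicate 1 (0.0561), 2 (0.0619) or 4 (0.117) or LF day 0 replicate 1 (0.178) or 3 (0.0536).

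Ccn2 had day medians of 7.745 at day 0 (7.17 to 8.19), 7.705 at day 7 (7.34 to 8.41) and 7.62 at day 10 (7.34 to 8.12). Its mean difference was -0.01 at day 7 (95% interval -0.182 to 0.17, adjusted p = 0.979) and -0.06 at day 10 (-0.239 to 0.113, adjusted p = 0.981). At day 7 Ccn2 differed from day 0 by -0.34 in FL and 0.29 in LF, neither past the threshold, and the LF value was 0.1 without LF day 7 replicate 2. The FL arrays of day 7, at 7.49 to 7.79, lay below those of day 0, a separation downwards found in FL for 1.96% of probe sets. At day 0 Ccn2 was between 7.81 and 8.11 in FL kidneys and between 7.17 and 7.63 in LF kidneys, again without overlap (2.31% of probe sets), a difference of 0.54 ± 0.174 (adjusted p = 0.0801). With the replicate block that adjusted p was 0.0414. FL at day 0 (7.982) and LF at day 0 (7.44) were the highest and lowest of the 12 Ccn2 group means, and no gap between neighbours in that order was larger than both SDs.

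**Figure D3:**
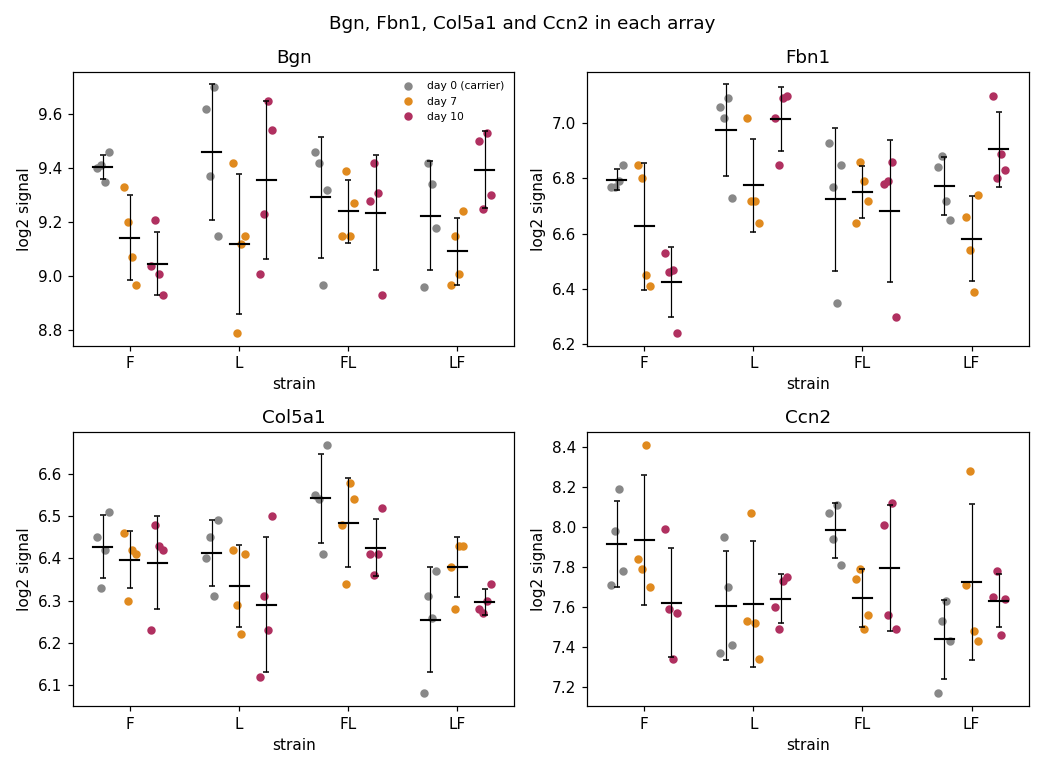
Log2 signals of Bgn, Fbn1, Col5a1 and Ccn2 on each of the 48 arrays, by strain and day, with a black bar at the group mean and an error bar of 1 SD. The days overlap for all 4 genes over the 16 arrays of each, and the day 0 arrays of FL lie above those of LF for Col5a1 and Ccn2, as for 2.31% of probe sets.

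**Figure D4:**
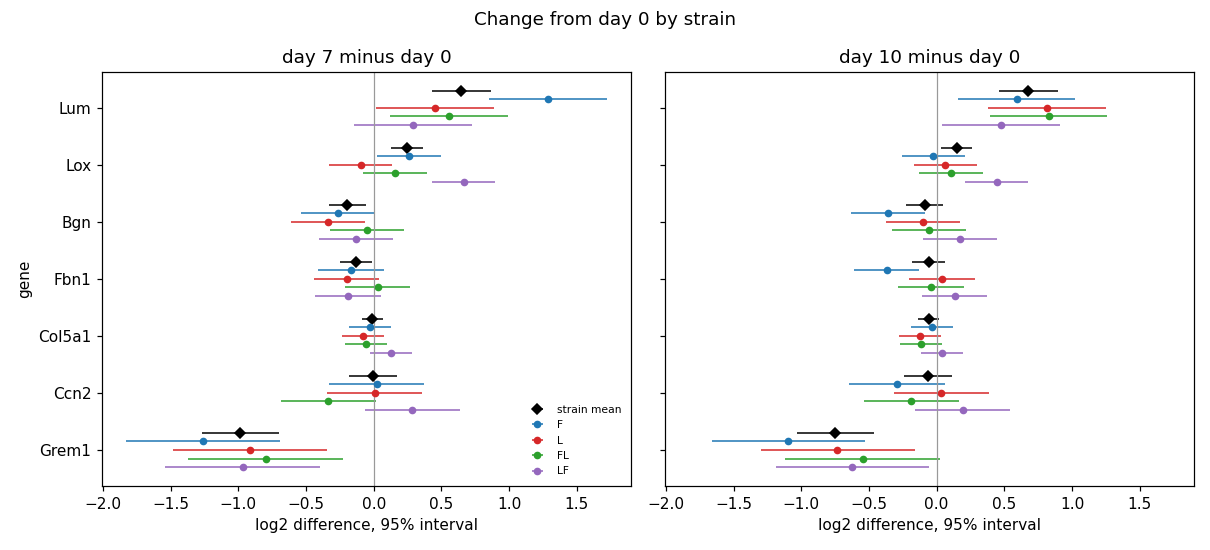
Log2 difference from day 0 with its 95% interval for the 7 genes, in the mean of the strains and in F, L, FL and LF, at day 7 on the left and day 10 on the right. The strain mean intervals for Lum lie above 0 and those for Grem1 below 0 at both times, while those for Col5a1 and Ccn2 span 0.

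The families of the members were set beside them, and their counts stand against 1.19% of all probe sets higher and 3.75% lower at day 7, and 1.26% higher and 1.15% lower at day 10. These lists, too, were chosen with earlier results of these data known. Of 8 small leucine-rich proteoglycans measured, Lum was the 1 that rose at either time, and 1 fell at day 7. That 1 was Prelp, which anchors basement membranes to collagen (-0.34, adjusted p = 0.0103). Decorin (Dcn), the close relative of Bgn, differed by -0.06 at day 7 (adjusted p = 0.72) and 0.10 at day 10 (adjusted p = 0.86). Of 17 fibril collagens and their partners listed, 8 were measured with a single-symbol probe set, and Col1a1 had none. Of these 8, limma called 0 at either time (2 had an unadjusted p under 0.05 at day 7 and 0 at day 10), with 0.13 for Col11a2 (adjusted p = 0.169) and 0.08 for Col3a1 (0.528) at day 7. The fibril collagens had median log2 differences of 0.075 at day 7 and -0.00562 at day 10, against -0.0288 and -0.00312 over all probe sets.

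Of 12 genes of collagen processing and cross-linking, Lox alone rose at day 7 and Pcolce, an enhancer of procollagen cleavage, fell (-0.19, adjusted p = 0.0166). Pcolce was not called after subtracting array medians or another quantile normalization (adjusted p up to 0.293). Among 8 genes of elastic fibres and microfibrils, 2 rose and 2 fell at day 7, and 2 fell at day 10. Elastin (Eln) rose by 0.21 (adjusted p = 0.0411) and Ltbp2 by 0.14 (0.0374) at day 7, calls that were lost without the 5 arrays of lowest spread. Fibulin-5 (Fbln5), which binds elastin, fell by 0.46 at day 7 (adjusted p = 0.000974) and 0.37 at day 10 (0.0123), and Ltbp1, which holds latent TGF-beta in the matrix, fell by 0.25 and 0.21 (0.00934 and 0.049). The day 10 call of Ltbp1 was also lost without those arrays (adjusted p = 0.142).

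Among 10 matricellular and provisional matrix genes, 1 rose and 1 fell at each time. Ccn3, of the same family as Ccn2, rose by 0.26 at day 7 (adjusted p = 0.00339) and 0.21 at day 10 (0.0302), and the proteoglycan Vcan fell by 0.44 and 0.37 (0.00121 and 0.00968). The day 10 call of Ccn3 was lost without the low-spread arrays (adjusted p = 0.0523). Of 18 genes of matrix turnover, 1 rose and 2 fell at day 7, and 2 rose and 1 fell at day 10. Timp1, an inhibitor of matrix metalloproteinases, rose by 0.50 and 0.83 (adjusted p = 0.00153 and 5.4e-07), its relative Timp3 fell by 0.28 and 0.18 (5.71e-05 and 0.0127), and the protease gene Adamts1 rose by 0.67 at day 10 (0.000209). Adamts5, the other that fell at day 7 (-0.18, adjusted p = 0.0375), lost its call in 4 of 8 alternatives.

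Of 12 TGF-beta ligands, receptors, Smads and targets, 2 rose at each time and 0 fell. Both were regulators named for TGF-beta, Tgif1 (0.33 and 0.43, adjusted p = 0.0106 and 0.000708) and Tsc22d1 (0.37 and 0.46, adjusted p = 5.71e-05 and 1.13e-06). The ligand gene Tgfb3 was 0.17 higher at day 7 (adjusted p = 0.0736) and 0.20 higher at day 10 (0.0519), neither called. The ligand gene Tgfb1 differed by -0.10 at day 7 (adjusted p = 0.496) and 0.05 at day 10 (0.988).

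Of 9 BMP antagonists with Grem1 among them, 0 rose, 3 fell at day 7 and 2 fell at day 10, against 3.75% and 1.15% of all probe sets that fell. Besides Grem1, Sostdc1, which also restrains Wnt signals, fell by 0.42 and 0.39 (adjusted p = 0.00708 and 0.0203), and the follistatin-like gene Fstl1 fell by 0.20 at day 7 (0.0344). The day 10 call of Sostdc1 and the call of Fstl1 were lost once the 5 low-spread arrays were left out (adjusted p of 0.0532 for Sostdc1 and up to 0.0736 for Fstl1). The BMP side held 16 measured ligands, receptors, Smads and targets, of which 1 rose and 1 fell at day 7, and 2 fell at day 10. The target Id2 rose by 0.29 at day 7 (adjusted p = 0.00734), the ligand gene Bmp4 fell by 0.33 at day 7 (0.0205), and Bmp3 and Bmp6 fell by 0.23 and 0.24 at day 10 (0.0123 and 0.026). The Bmp6 call was lost without the low-spread arrays (adjusted p = 0.0683). The target Id1 differed by 0.23 at day 7 (adjusted p = 0.147).

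**Figure D5:**
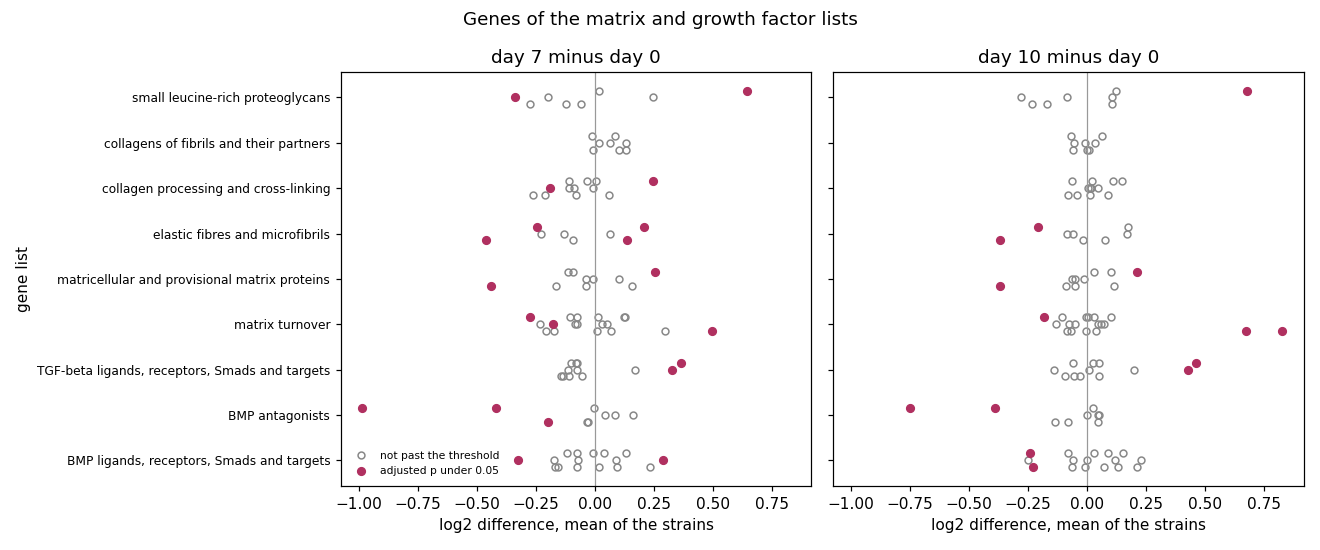
Log2 difference from day 0 in the mean of the strains for every measured gene of 9 lists, at day 7 and at day 10, with filled points for an adjusted p under 0.05. Grem1 lies lowest among the BMP antagonists and Lum highest among the small leucine-rich proteoglycans.

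Markers of the cells that make matrix were measured on the same arrays. Their counts stand against 1.19% of all probe sets higher and 3.75% lower at day 7, and 1.26% higher and 1.15% lower at day 10. Of 18 fibroblast markers listed, 9 were measured, without Col1a1 and Pdgfra. Among these 9, Lum was the 1 that rose, and Thy1 fell at day 7 (-0.30, adjusted p = 0.0408), a call lost in 3 of 8 alternatives. The mean level of the 8 fibroblast markers other than Lum ran between 5.844 and 6.198 at day 0, 5.588 and 6.274 at day 7, and 5.799 and 6.295 at day 10. Of 15 smooth muscle and pericyte markers listed, 11 were measured, without Acta2 and Myh11. Of these 11, 3 rose at day 7 and 4 at day 10, and 0 fell. Tagln, a smooth muscle actin-binding protein, rose by 0.45 and 0.59 (adjusted p = 0.00012 and 1.13e-06), and Actg2, a smooth muscle actin, by 0.23 and 0.33 (0.0491 and 0.00377). The mean level of the 11 ran between 5.911 and 6.528 at day 0, 5.959 and 6.552 at day 7, and 6.016 and 6.573 at day 10. The part of these markers in the changes of Lum, Lox and Grem1 was not tested.

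Over the 12 group means, the genes most like Lum were Tgfb3, a TGF-beta ligand (r = 0.884), Actg2 (r = 0.88) and Sulf1, a heparan sulfatase (r = 0.861). Within groups their deviations followed those of Lum weakly, at 0.0802, 0.0992 and 0.254 over 48 arrays. Tgfb3 itself was 0.17 higher at day 7 (adjusted p = 0.0736) and 0.20 higher at day 10 (0.0519). The genes most like Grem1 were Slc14a2, a urea transporter of the collecting duct (r = 0.965), Tmod1, an actin-capping protein (r = 0.93), and Calb1, a calcium-binding protein of the distal tubule (r = 0.922). Slc14a2 fell by 0.55 at day 7 (adjusted p = 6.97e-08) and 0.48 at day 10 (9e-07), and Calb1 by 0.89 and 0.84 (6.17e-06 and 1.34e-05). Tmod1 differed by -0.19 at day 7 (adjusted p = 0.031) and -0.14 at day 10 (0.214). The genes most like Lum and Grem1 were picked on group means that hold the day change, so their day differences are no separate support. Deviations within groups correlated with those of Grem1 at 0.537 for Slc14a2, 0.119 for Tmod1 and 0.622 for Calb1. An r above 0.8 over the 12 group means was reached by 24 genes for Lum and 76 for Grem1, and the group means share strains, days and the array spread.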

How the data were processed

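The deposited table holds log2 signals, made by the authors with RMA (robust multi-array averaging), which the submitters' processing notes name beside limma, with no versions. Background correction, probe set selection and genome build are not given in the sources used here. The table had 8797 probe sets, 48 arrays, 0 missing values and array medians of 5.66 to 6.06. The number of arrays limits the precision.

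Using limma 3.58.1 in R 4.3.3, a single linear model held the 12 group means (residual df 36, prior df 3.69). The model gave 33 contrasts and a strain by day F test (numerator df 6), and Benjamini-Hochberg adjustment ran over the whole table for each, with a threshold of 0.05. The scripts were tested on simulated data.

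Members and lists were chosen with earlier results of these data known. Named genes were the members, the 3 genes most like Lum and Grem1 over the group means, and Cyp1a1 and Havcr1. Of each list, up to 4 genes with the smallest p in the strain mean at day 7 and at day 10 were named. Dcn and Tgfb1 lie outside this rule and were named after their values were seen. The brightest probe set stood for a gene with several. Listed genes with no single-symbol probe set were not measured, so list counts cover only part of each list. Lists covered matrix families, TGF-beta and BMP signalling, injury, and markers of fibroblasts, smooth muscle and pericytes, endothelium, podocytes, proximal tubule, leucocytes, and adipose and adrenal tissue.

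Replicate numbers pair arrays because the array names in the labels share their leading part within a number. Deviations from group means of arrays with the same number correlated at 0.136, 0.0437, 0.008 and 0.189 on average (66 pairs each), against -0.0314 for different numbers and groups. The series calls the arrays of a group biological replicates. Alternatives were the replicate block, other scalings, the array spread, array weights, fewer arrays or probe sets, other variance settings, and leaving out each array or replicate number.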

Additional observations from a re-analysis of the deposited data

Results flagged for a closer look

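Of 84 groups of 4 arrays tested over the 7 genes, 3 held an array far from the others by Dixon's criterion, and chance marks about 1 in 20 groups. Lum stood at 3.11 in F day 7 replicate 4, below the other F arrays of day 7, and without that array Lum in F at day 7 differed from day 0 by 1.51. Fbn1 stood at 6.3 in FL day 10 replicate 4, the array with the lowest spread of all 48. Grem1 stood at 5.47 in L day 7 replicate 1, below the other L arrays of day 7.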

How the results depend on the processing

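Under 9 other settings, the strain mean changes of Lum and Grem1 at both times, and of Lox at day 7, kept direction and call, except that Lum had no value when the dimmest 25% of probe sets were left out. Leaving out arrays or replicate numbers gave 0.582 to 0.724 for Lum and -1.03 to -0.921 for Grem1 at day 7, and 0.617 to 0.783 and -0.847 to -0.668 at day 10, called in all 52 settings. Lox at day 7 ran between 0.214 and 0.283, called in 49 of 52. Bgn at day 7 ran between -0.224 and -0.169, called in 3. The cause of the lost and gained calls was not tested. Further calls appeared with array weights, Bgn at -0.211 and Fbn1 at -0.149 at day 7, and Lox at day 10 was called with the array spread as covariate (0.152).

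Ccn2 at day 7, uncalled, changed sign to 0.071 after a second quantile normalization, 0.0506 with array medians subtracted, 0.056 with the array spread, 0.00187 with array weights and 0.0442 once the 5 low-spread arrays were left out, and ran between -0.0525 and 0.0525 on leaving out arrays. Col5a1 at day 7, also uncalled, was 0.0701 and 0.0469 under the first pair of these, and -0.035 to 0.0217 on leaving out arrays. The Lox strain by day test had an adjusted p of 0.0499 with the replicate block, 0.0168 with array medians subtracted and 0.00941 with the array spread. Lox in LF at day 10 was called with the replicate block, the second quantile normalization (0.0262), array medians subtracted (0.00639) and the array spread (0.0027). Grem1 in F at day 10 was called with the 2 scalings (0.0427 and 0.0404).

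Over all probe sets, 105 were higher and 330 lower at day 7, and 111 higher and 101 lower at day 10. The alternatives gave 105 to 268 higher and 195 to 905 lower at day 7, and 102 to 272 and 65 to 236 at day 10. Without replicate number 2, 21 were higher and 78 lower at day 7, and without L day 0 replicate 4, 591 were lower. The replicate block gave 189 higher and 787 lower at day 7, and changed no other strain mean call of a member than those named here. No scaling moved the median of all probe sets by more than 0.1. Among the lists, counts that moved by 2 genes or more over these settings were, at day 7, elastic fibre genes higher (2, with 0 to 3), BMP ligands and targets higher (1, with 1 to 5), smooth muscle and pericyte markers higher (3, with 2 to 5), cross-linking genes lower (1, with 1 to 3), matrix turnover lower (2, with 1 to 4), macrophage and leucocyte markers lower (4, with 2 to 5), and proximal tubule markers lower (3, with 1 to 3) and higher (0, with up to 2). At day 10 they were BMP ligands and targets higher, endothelial markers lower and proximal tubule markers lower (each 0, with up to 2). Other list counts moved by at most 1 gene.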

Other observations

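The counts below stand against 1.19% of all probe sets higher and 3.75% lower at day 7. At day 10 the shares were 1.26% higher and 1.15% lower. Of 14 tubular injury markers, 7 rose and 0 fell at day 7, and 8 rose and 1 fell at day 10. These are strain means. In L the day 7 arrays overlapped those of day 0 for all 7 that rose, with Fgb at 4.97 to 5.4 against 5.16 to 5.47. In F the day 7 arrays lay above day 0 for all 7, as for 2.92% of all probe sets. Clu, a secreted chaperone, rose by 0.49 at day 7 (adjusted p = 0.00347) and 1.01 at day 10 (2.69e-08), and was 0.52 higher at day 10 than at day 7 (0.0232). The fibrinogen chain gene Fgb rose by 0.58 and 0.92 (0.00121 and 8.99e-07). Of 9 macrophage and leucocyte markers, 4 fell and 0 rose at day 7, with Fcgr3a, an antibody receptor, at -0.56 (adjusted p = 0.00929), and 1 rose and 1 fell at day 10. Of 7 endothelial markers, Emcn (-0.32, adjusted p = 0.00184) and Plvap (-0.24, 0.0244) fell at day 7 and 0 were called at day 10 (2 at an unadjusted p under 0.05). Of 8 podocyte markers 1 fell at day 7, Podxl (-0.18, adjusted p = 0.0133), and of 12 proximal tubule markers 3 fell, with Lrp2 at -0.15 (0.00598). Calls were lost for Podxl without the 5 low-spread arrays (adjusted p = 0.0627), for Lrp2 with array medians subtracted (-0.0919, 0.092) and for Plvap with the array spread in the fit (0.0588). At day 10 limma called none of either list (1 and 5 at an unadjusted p under 0.05). None of 10 adipose and adrenal tissue markers was called at either time by limma (1 at an unadjusted p under 0.05 at day 7 and 0 at day 10).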
